A study of Mus musculus with 2 samples.

Results

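Csf1r, Csf2rb, Csf2rb2, Ncf4, C1qa, C1qb and C1qc are 7 genes of the myeloid lineage that encode growth factor and cytokine receptors, an oxidase subunit and complement chains. They were taken as all rows of the authors' deposited table whose mm9 position overlapped one of 5 windows, and these held 15 transcripts at 7 loci, of 55418 transcripts at 24214 loci in all. The genes had been chosen by their fold changes and calls in this same comparison, so their differences are described here and not tested. RNA came from mouse embryos of embryonic day 9.5 with 21 to 25 somites, and that of 25 embryos was pooled. Both pools came from a cross of mTmG reporter mice with Grhl3-cre mice, on a C57BL/6 background. In these embryos a Cre recombinase driven by Grhl3 changes a membrane reporter from red to green, which marks the non-neural ectoderm. Tissue outside the neural tube was cut away, and live single cells were sorted into a GFP-positive pool, labelled non-neural ectoderm, and an RFP-positive pool, labelled as the other neural tube cells. The sort was by reporter colour, so either pool can include cells of the dissected tissue of other types than its label names. Each pool gave 1 library, so no value has a replicate error.

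The table names its conditions q1 and q2, which match neither pool's labels, so each difference is given as q2 against q1 and no pool is named as the higher. A positive log2 fold change means a higher abundance in q2. The error of a log2 fold change, given after ±, is its size divided by the size of the deposited test statistic, and 95% intervals span 1.96 errors on either side. Errors of this kind come from the authors' model of 2 libraries and not from repeated embryos. For a difference between genes, the combined error is the square root of the sum of their squared errors. It takes these errors as independent, which was not checked.

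Macrophages are the first white blood cells of the mouse embryo, and they arise in the yolk sac and enter many tissues, the neural tube among them, where they give rise to microglia. Csf1r is the receptor tyrosine kinase for the growth factors CSF1 and IL-34, on which most macrophages depend. Csf2rb encodes the beta subunit shared by the receptors for GM-CSF, IL-3 and IL-5, and Csf2rb2 is its close copy in the mouse, which serves the IL-3 receptor. Ncf4 encodes p40phox, a cytosolic subunit of the phagocyte NADPH oxidase that makes superoxide. C1qa, C1qb and C1qc encode the chains of C1q, the recognition molecule of the classical complement pathway, and tissue macrophages are its main source.

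All 7 genes had a positive fold change, from 5.0-fold to 10.1-fold, when each was read from its transcript with the largest test statistic. The median of these leading transcripts was a log2 fold change of 2.67, or 6.35-fold, against a median of 0.0046 for the 28140 transcripts that were tested and had a finite ratio. In the authors' deposited table, 5 of the 11 tested transcripts, 1 each of Csf1r, Csf2rb, Csf2rb2, Ncf4 and C1qb, were marked significant. Over all 29405 tested transcripts, 0.803% were marked significant, and 0.690% were marked significant and positive. All 11 tested transcripts were positive, as were 50% of all tested transcripts. Since this contrast chose the genes, nothing is read from these shares. In pooled bulk RNA, more cells of a type and more RNA per cell cannot be told apart.

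The file pairs no ID with a gene name, so the match of locus to gene was checked by length. The locus of Csf1r was 25568 bases wide and that of C1qa 2929, both equal to the length of the RefSeq gene of that name on GRCm38.p6. The other loci differed from the RefSeq length by 0.521% for Csf2rb2, 0.708% for C1qb, 0.733% for C1qc, 3.52% for Ncf4 and 11.3% for Csf2rb. Against the GENCODE M21 lengths the differences were 0.0562% for Ncf4, 0.164% for Csf2rb, 0.446% for C1qb, 0.521% for Csf2rb2, 1.45% for C1qa, 4.57% for C1qc and 19.0% for Csf1r. Neither annotation alone was close for all 7 genes. The 3 C1q loci were told apart by their RefSeq lengths, so for them the RefSeq differences are not a separate check. The order along the chromosome was also that of RefSeq, with Ncf4, Csf2rb2 and Csf2rb in a row on chromosome 15 and C1qb, C1qc and C1qa in a row on chromosome 4. No other gene of the myeloid lineage, and no marker of another cell type, could be looked up by name, so the label myeloid rests on these 7 genes.

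Among the receptors, Csf1r lies on chromosome 18 from 61265225 to 61290793 of mm9, and its locus lists 4 transcripts. The authors' deposited table gave its leading transcript uc008fbn.1 a log2 fold change of 2.46 ± 0.52, or 5.52-fold with an interval from 2.71 to 11.2, and a q-value of 6.03e-04. This error was the smallest of the 7 genes. The other 3 transcripts of the locus were not tested. Of these, uc008fbo.1 was listed at a log2 fold change of 0 and uc012bdo.1 at -0.38 ± 276, and uc008fbp.1 was a positive ratio against 0 in the authors' deposited table. The value of Csf1r thus rests on a single transcript model.

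Csf2rb, from 78156227 to 78184277 on chromosome 15, had the largest difference and the largest test statistic of the 7. Its transcript uc007wpa.2 had a log2 fold change of 3.34 ± 0.54 in the authors' deposited table, or 10.1-fold with an interval from 4.86 to 21.1, and a q-value of 2.78e-07. By size of its test statistic it was number 66 of the 28140. The locus held 3 more transcripts that overlap it. One of them, uc007woz.2, had nearly the same log2 fold change, 3.31, with an error of 8.85, so its interval in log2 units, computed from the authors' deposited table, ran from -14.03 to 20.66. The remaining pair had opposite signs in the authors' deposited table: uc011zvn.1 was a positive ratio against 0 with a p-value of 0.450, and uc011zvo.1 a negative one that was not tested.

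Csf2rb2 lies between Ncf4 and Csf2rb, from 78112939 to 78136033. Both of its transcripts were tested, and both had positive values. The authors' deposited table gave uc007woy.1 a log2 fold change of 2.82 ± 0.69, or 7.07-fold with an interval from 2.76 to 18.1, and a q-value of 0.00746. For uc011zvm.1 it gave 2.52 ± 0.74, and this transcript was not marked significant, with a q-value of 0.0740. Finite calls began at a test statistic of 3.54 in size, and that of uc011zvm.1 was 3.41.

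The copies Csf2rb and Csf2rb2 share much of their sequence, which bears on how far their values are separate. Over 2628 aligned coding bases of GENCODE M21 they were 95.2% identical. Of the 50-base windows along the coding sequence, 26.2% of those of Csf2rb also occurred in a transcript of Csf2rb2, and 26.6% of those of Csf2rb2 occurred in one of Csf2rb. With windows of 36 bases these shares were 36.2% and 36.3%. The longest identical stretch was 242 bases, at coding bases 2083 to 2324 of both. It is shown in capitals with 24 bases of each gene on either side in lower case, because a read that falls inside the capitals fits both genes equally.
Csf2rb: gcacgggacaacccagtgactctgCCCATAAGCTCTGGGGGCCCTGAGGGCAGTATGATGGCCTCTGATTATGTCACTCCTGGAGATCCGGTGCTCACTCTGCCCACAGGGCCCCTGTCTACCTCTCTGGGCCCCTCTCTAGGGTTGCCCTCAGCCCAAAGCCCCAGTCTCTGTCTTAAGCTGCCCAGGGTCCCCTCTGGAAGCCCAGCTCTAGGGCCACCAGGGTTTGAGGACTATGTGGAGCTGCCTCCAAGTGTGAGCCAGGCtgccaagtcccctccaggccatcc
Csf2rb2: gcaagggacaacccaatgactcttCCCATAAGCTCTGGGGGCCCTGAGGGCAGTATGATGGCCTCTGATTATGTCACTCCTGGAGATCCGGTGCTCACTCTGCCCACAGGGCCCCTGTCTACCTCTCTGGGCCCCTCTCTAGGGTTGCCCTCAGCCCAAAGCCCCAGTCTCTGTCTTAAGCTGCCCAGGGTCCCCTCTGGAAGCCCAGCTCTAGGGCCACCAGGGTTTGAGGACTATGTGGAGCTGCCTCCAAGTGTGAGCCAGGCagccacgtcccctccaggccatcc
How the authors' counting split such reads is not given in the sources used here, so the fold changes of this pair are uncertain as separate values. Their difference, 0.52 log2 units, had an interval from -1.20 to 2.24. This interval takes the errors of both genes as independent, which may not hold where reads fit both. The coding sequences of Csf1r, Ncf4, C1qa, C1qb and C1qc had 0 windows of either length in a transcript of another gene.

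**Figure D1:**
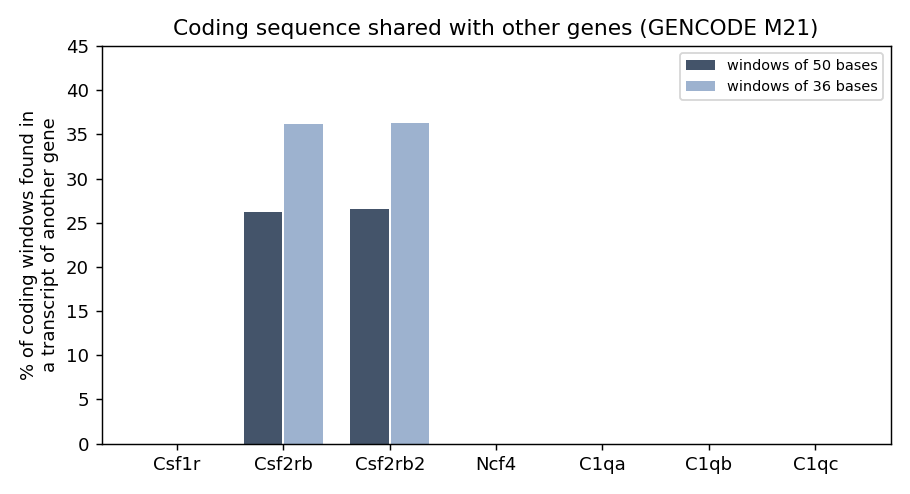
Share of coding windows (y axis, percent) of each of the 7 genes (x axis) that also occur in a GENCODE M21 transcript of another gene, for windows of 50 bases (dark bars) and 36 bases (light bars). Csf2rb and Csf2rb2 reach 26.2% and 26.6% at 50 bases, and the other genes are at 0.

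Ncf4 stands for the oxidase. It lies on chromosome 15 from 78075240 to 78093010, and its locus lists 2 transcripts, both tested. In the authors' deposited table uc007wox.2 had a log2 fold change of 3.23 ± 0.59, or 9.37-fold with an interval from 4.19 to 21.0, and a q-value of 1.77e-05. The second transcript, uc007wow.2, was at 2.95 ± 2.29, so its interval, from -1.54 to 7.45, included 0. The first alone was marked significant, and the error of the second was too wide to tell their values apart.

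The complement genes lie side by side on chromosome 4, and each locus lists a single transcript, so no split of reads between transcript models arises within a locus. Of the 3 tested transcripts, 1 was marked significant, and over all loci with a single transcript 2.54% of tested transcripts were. C1qb, from 136436060 to 136442092, was marked significant: the authors' deposited table gave uc008vip.1 a log2 fold change of 2.67 ± 0.64, or 6.35-fold with an interval from 2.65 to 15.2, and a q-value of 0.00568. C1qa, from 136451830 to 136454759, had nearly the same value without a call. Its transcript uc008vir.1 was at 2.61 ± 0.84 in the authors' deposited table, or 6.11-fold with an interval from 1.95 to 19.2, and a q-value of 0.170. C1qc, from 136445716 to 136448829, had the smallest difference of the 7, since uc008viq.1 was at 2.32 ± 0.74 in the authors' deposited table, or 5.0-fold with an interval from 1.83 to 13.7, and a q-value of 0.157. The test statistics of C1qc and C1qa were 3.14 and 3.10 in size, against the 3.54 at which calls began. C1qb exceeded C1qa by 0.05 log2 units, with the interval of C1qa minus C1qb from -2.13 to 2.02, and exceeded C1qc by 0.34, with an interval from -1.58 to 2.26. A call for C1qb and none for its neighbours therefore does not show that the chains differed.

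The chains of C1q are joined through collagen-like stalks, in which the residues come in triplets that begin with glycine, and the coding sequences show this. In the GENCODE M21 coding sequences the longest run of triplets of codons that each begin with glycine held 16 of them in C1qa, 29 in C1qb and 16 in C1qc. In Csf1r, Csf2rb, Csf2rb2 and Ncf4 it held 2. A run ends at the first break in the pattern, so its length need not be that of the whole stalk. Over the whole coding sequence, glycine codons numbered 39 in C1qa, 40 in C1qb and 39 in C1qc. The runs are shown with the glycine codons in capitals, from coding base 184 of C1qa, 91 of C1qb and 202 of C1qc.
C1qa: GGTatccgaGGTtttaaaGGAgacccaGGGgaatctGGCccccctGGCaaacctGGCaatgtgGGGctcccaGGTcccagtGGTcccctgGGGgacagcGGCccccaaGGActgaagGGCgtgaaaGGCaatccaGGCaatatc
C1qb: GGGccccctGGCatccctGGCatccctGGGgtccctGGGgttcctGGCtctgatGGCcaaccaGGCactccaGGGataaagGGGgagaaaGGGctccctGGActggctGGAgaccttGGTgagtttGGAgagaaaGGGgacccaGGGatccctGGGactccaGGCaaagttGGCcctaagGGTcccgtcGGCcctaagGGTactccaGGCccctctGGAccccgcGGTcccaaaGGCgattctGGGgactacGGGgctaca
C1qc: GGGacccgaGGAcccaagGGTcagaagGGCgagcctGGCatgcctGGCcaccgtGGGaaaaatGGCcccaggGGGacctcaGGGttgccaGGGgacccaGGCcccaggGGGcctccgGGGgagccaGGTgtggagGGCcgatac
Although the 3 genes repeat this pattern, C1qa and C1qb were 56.8% identical over their aligned coding bases, C1qa and C1qc 56.0%, and C1qb and C1qc 60.8%. Their coding sequences shared 0 windows of 36 bases, and their untranslated parts were not scanned.

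**Figure D2:**
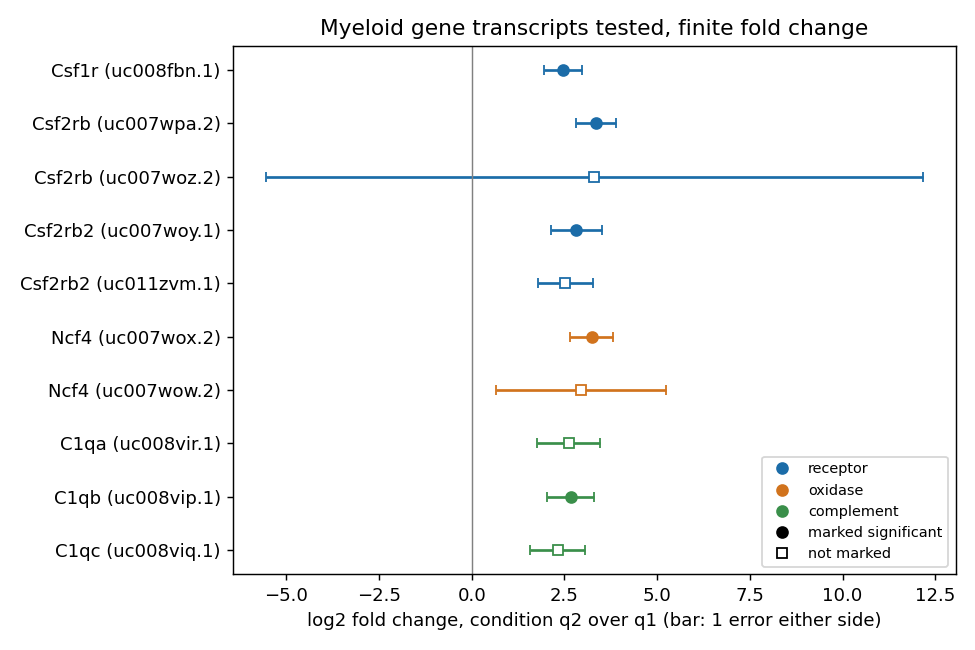
Log2 fold change of condition q2 over q1 (x axis) for the 10 tested transcripts with a finite value (rows), with bars of 1 error on either side. Filled circles were marked significant in the authors' deposited table, open squares were not, and colours give receptors, oxidase and complement. The points lie between 2.32 and 3.34, while the errors run from 0.52 to 8.85.

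The sizes of the differences could not be ranked. The order of the leading transcripts was Csf2rb at 3.34, Ncf4 at 3.23, Csf2rb2 at 2.82, C1qb at 2.67, C1qa at 2.61, Csf1r at 2.46 and C1qc at 2.32, a range of 1.02 log2 units. Of the 21 pairs among them, 0 differed by more than 1.96 times their combined error, and the largest ratio was 1.16, between Csf2rb and Csf1r. That difference was 0.87 log2 units, and its interval, as Csf1r minus Csf2rb, ran from -2.35 to 0.60. Intervals of this width also leave room for differences of several fold between genes. These are descriptions with no p-value.

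The place of the 7 genes among all transcripts is given as a description, since the limit used is the value of their own lowest member. Of the 13480 tested transcripts with an error no larger than the largest of the 7, which was 0.84, a positive log2 fold change of at least 2.32 was found for 161, or 1.19%, and the median of all 13480 was -0.016. Without a limit on the error the share was 2.58%, or 726 of 28140. Csf2rb, the highest of the 7, was number 318 of these by log2 fold change, and C1qc, the lowest, number 726. The 7 genes are themselves among those counted, and nothing is read from these shares.

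**Figure D3:**
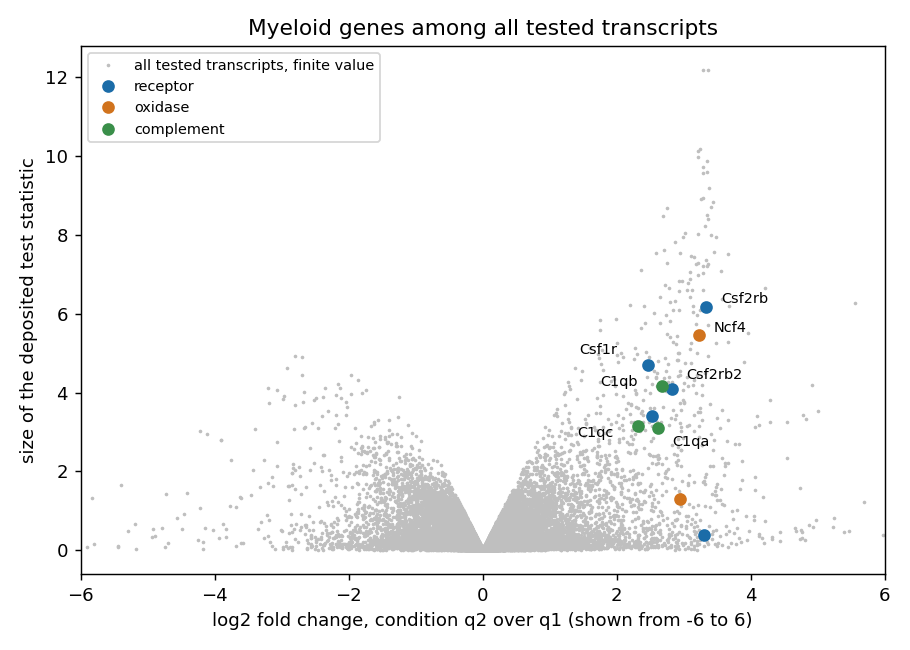
Size of the deposited test statistic (y axis) against the log2 fold change of q2 over q1 (x axis, shown from -6 to 6) for all tested transcripts with a finite value (grey), with the 10 transcripts of the 7 genes in colour and the leading ones named. The leading transcripts lie between 2.32 and 3.34 on the x axis and between 3.10 and 6.18 on the y axis.

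The median difference of the transcripts at loci around these genes was small, although some errors were several log2 units wide. A locus with several tested transcripts counts more than once in this median. Where the error is that wide, a small value does not show that the conditions were alike. Within 250 kb on either side of the 3 groups of loci, the table held 33 other tested transcripts at 18 loci. Of these transcripts 1 was marked significant, against 0.803% of all tested transcripts, and nothing is read from so small a count. Their median log2 fold change was 0.03 over the 30 with a finite value. Around the C1q genes the 5 tested neighbours lay between -0.50 and 0.23. Around Csf1r the 13 tested neighbours lay between -1.04 and 0.35. The lowest of these, uc012bdp.1, had an error of 8.80, and the next, uc008fbj.2, was at -0.94 ± 0.50 in the authors' deposited table. The nearest neighbour starts 0.137 kb past the end of the Csf1r locus and has the exact length of the RefSeq gene Hmgxb3. Its best measured transcript uc008fbr.1 was at 0.17 ± 0.36 in the authors' deposited table.

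On chromosome 15 the neighbours were more mixed, with a median of 0.25 and a range from -0.65 to 2.86. The highest of them, uc007wpe.2 at the locus with the exact length of Mpst, had an error of 2.91, and uc011zvq.1 of the same locus was at 0.43 ± 0.44 in the authors' deposited table. The 1 call lay 205 kb past Csf2rb, from 78389598 to 78403213. Its width of 13615 bases is exactly that of Rac2 in RefSeq, which lies on the same side of Csf2rb there and encodes a small GTPase of blood cells that activates the same phagocyte oxidase Ncf4 belongs to. The authors' deposited table gave this transcript, uc007wpp.1, a log2 fold change of 2.46 ± 0.56, or 5.49-fold, and a q-value of 0.00234. A locus 243 kb past Csf2rb has the exact length of Cyth4, and its tested transcript uc007wpt.1 was at 1.92 ± 0.60 in the authors' deposited table, with a q-value of 0.132. Nearer by, 45.7 kb past Csf2rb, uc007wpd.1 was at 1.10 ± 0.50 in the authors' deposited table and was not marked significant. Its locus could not be named by length. Rac2, Cyth4, Mpst and Hmgxb3 were picked out after their values were seen, and their names rest on length and neighbourhood alone.

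**Figure D4:**
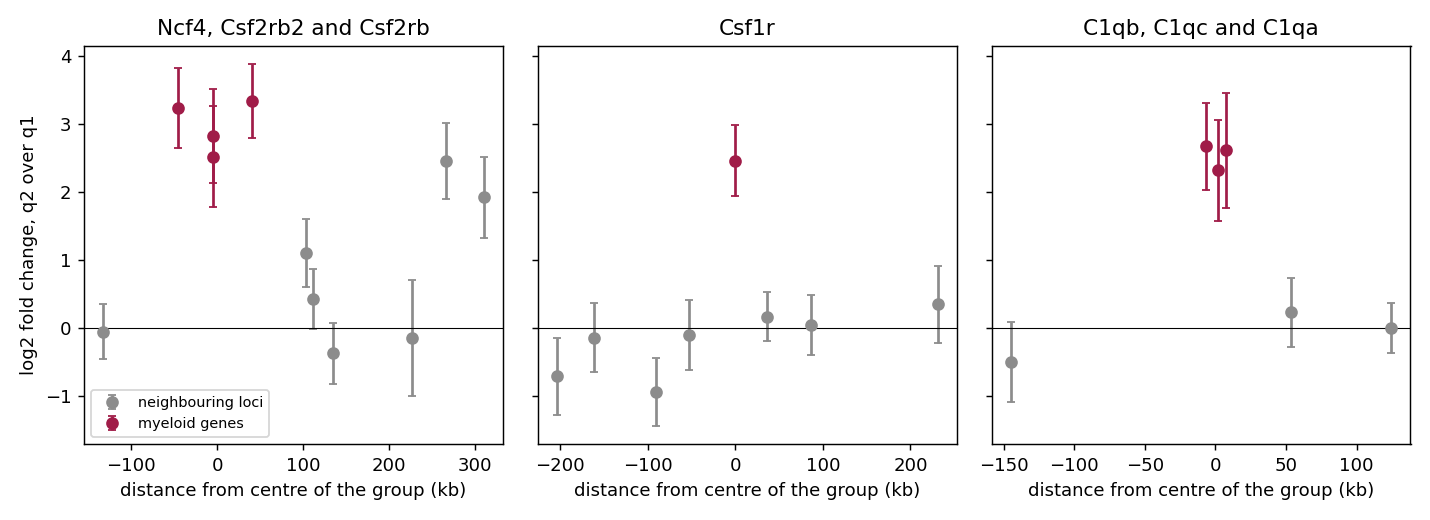
Log2 fold change of q2 over q1 (y axis, bars of 1 error on either side) against distance from the centre of each group of loci (x axis, kb), for the myeloid genes (red) and other tested transcripts within 250 kb (grey), both limited to errors of at most 1. The red points lie between 2.32 and 3.34. Grey points lie between -0.94 and 0.35 around Csf1r and the C1q genes. On chromosome 15 those at 2.46 and 1.92 are the loci with the lengths of Rac2 and Cyth4, and the one at 1.10 is a locus without a name.

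Promoter sequence was at hand for 3 of the 7 genes, C1qb, C1qc and Csf2rb2, from RefSeq on GRCm38.p6. Many promoters of myeloid genes are bound by PU.1, an ETS family factor whose sites centre on the letters AGGAAGT. The motif was chosen after these sequences had been seen. It was searched on both strands, as AGGAAGT and ACTTCCT, from 250 bases before to 50 bases after the start. Each of the 3 held 1 match, and 9.35% of the 32851 promoters in that reference held at least 1. The match began 53 bases before the start of C1qb, 195 bases before that of C1qc, and at base 28 of the transcribed sequence of Csf2rb2. The longer form GAGGAAGT, which contains the shorter, was found in C1qc and Csf2rb2 and in 3.20% of all promoters. Since the motif was chosen with these sequences known, nothing is read from these shares. The 250 bases before the start of C1qb, chr4:136886201-136886450, and of C1qc, chr4:136892915-136893164, and 30 bases around the match of Csf2rb2, chr15:78305677-78305706, are shown on the minus strand with the match in capitals, since they are the letters these 3 genes share.
C1qb: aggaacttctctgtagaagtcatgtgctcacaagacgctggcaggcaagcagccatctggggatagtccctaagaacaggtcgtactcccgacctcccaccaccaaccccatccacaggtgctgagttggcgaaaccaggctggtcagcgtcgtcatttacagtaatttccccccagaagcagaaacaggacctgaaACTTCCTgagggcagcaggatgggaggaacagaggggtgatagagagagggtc
C1qc: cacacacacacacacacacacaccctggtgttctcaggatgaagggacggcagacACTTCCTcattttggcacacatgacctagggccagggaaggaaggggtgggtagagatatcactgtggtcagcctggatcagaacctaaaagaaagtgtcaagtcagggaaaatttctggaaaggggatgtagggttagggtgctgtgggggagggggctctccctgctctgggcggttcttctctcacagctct
Csf2rb2: agggcactggcaACTTCCTcaatctgctct
A match of letters is a description of the sequence and says nothing about binding in these cells.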

How the data were processed

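RNA was measured in 2 sorted pools with 1 library each, and per the labels' protocols each library took 1 µg of RNA into a TruSeq preparation. The submitters' processing notes name TopHat 1.3.2, Cufflinks 2.0.2, Cuffdiff and the build mm9. Annotation, Cuffdiff settings and depth were not given in the sources used here. In 1 table the authors deposited a log2 fold change per transcript, where placeholders stand for ratios with 0 on one side. Its test statistic is a score the authors deposited, and the p-value and q-value are theirs too. "Significant" is the authors' own mark. The 2 columns of abundance carry names that match no sample's labels and were left out, and the gene lists planned by name could not be looked up.

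Transcripts were selected by mm9 position, with starts as the file gives them. Every transcript that overlapped a window was named. The genes, windows and lists were chosen with earlier results of these data known. Shared windows and identity were computed from coding sequences of GENCODE M21, one transcript per gene, the longest. The Benjamini-Hochberg adjustment and the window search were tested on simulated data. Alternatives were other q-value limits, adjustment over all rows, loci with a single transcript, centring, and other window and flank sizes. Software was Python 3.11.15 with Biopython 1.88, pandas 2.3.3, matplotlib 3.10.9, scipy 1.17.1 and numpy 2.4.6.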

Additional observations from a re-analysis of the deposited data

How the results depend on the processing

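No paired analysis was possible because each pool gave 1 library, and for the same reason none was left out. The 5 significant transcripts of the 7 genes stayed 5 at a q-value of at most 0.01 and when the deposited p-values were adjusted over all rows by Benjamini-Hochberg, and numbered 6 at a q-value of at most 0.1. Restricting the count to loci with a single transcript left 1, C1qb, because just 3 tested transcripts, those of the C1q genes, lie at such loci. The share of all tested transcripts called was 0.626% at a q-value of at most 0.01, 0.949% at one of at most 0.1, and 2.54% at loci with a single transcript. The median log2 fold change of the tested transcripts, 2.74, stayed between 2.61 and 2.74 under the 5 alternatives run. The limit on the error, the 100 kb flank, which leaves out the call at the length of Rac2 and so holds 0 calls among its 24 tested transcripts, and the 36-base windows were added after seeing the data. As deposited, 0.803% of all tested transcripts were called, so nothing is read from the count in that flank. Pseudocounts were not run, because the abundance columns were not used. Unknown depth means that no counting interval can be given.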
